A study of Homo sapiens with 12 samples.

Results

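The 10 genes CXCL1, CXCL2, CXCL3, CXCL5, CXCL8, CCL20, IL18, LIF, IL11 and CSF1 encode chemokines and cytokines that tumour cells secrete, and they were followed as transcripts in human liver cancer xenografts treated with the kinase inhibitor CS2164, with radiation (IR), or with both. All 10 were found by symbol among the 19988 genes of the deposited table, and 9 passed the filter on low counts that left 13521 genes for testing. The set was chosen because IL18 and CXCL8 were higher when radiation was added to CS2164. For that comparison (CS2164 plus IR against CS2164 alone) the members' values are therefore a description, with no test.

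Tumours were grown from Huh-7, a human hepatocellular carcinoma cell line, injected subcutaneously into BALB/c nude mice aged 6 weeks. The 4 groups had 3 libraries each, and treatment started once tumours averaged 150 to 200 mm3. The CS2164 plus IR group received CS2164 by oral gavage at 10 mg/kg/day together with radiation of 2 Gy/day in 10 weekday fractions, the IR group the same radiation, the CS2164 group the same oral dose, and the control group the co-solvent without radiation. The labels state that daily gavage held either CS2164 or the co-solvent, and that mice were anaesthetised with pentobarbital before radiation. All 12 libraries are labelled as the Huh-7 line, although the titles of the CS2164, IR and CS2164 plus IR libraries carry other Huh numbers, and which is right was not tested. CS2164 (chiauranib) inhibits Aurora kinase B, VEGF receptors, PDGFRA, KIT and CSF1R, the receptor for the product of CSF1. Nothing in the labels says that the 3 libraries of a group came from separate mice, so p-values measure the spread between libraries, which may be technical. Nude mice lack T cells and keep neutrophils and macrophages, which are mouse cells here. The sources used here do not give the handling of mouse reads.

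CXCL1, CXCL2, CXCL3, CXCL5 and CXCL8 belong to the chemokines with an ELR motif, which draw neutrophils through the receptors CXCR1 and CXCR2. CCL20 attracts cells that carry CCR6. IL18 is a cytokine of the IL-1 family that is made as a precursor and released in active form after cleavage, classically by caspase-1 in an inflammasome. LIF and IL11 signal through gp130 (IL6ST) with LIFR or IL11RA and activate STAT3, and CSF1 sustains macrophages through CSF1R. Many of these genes are textbook targets of NF-kB and AP-1. Mice have no gene orthologous to CXCL8.

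The sequences upstream of the chemokine genes are shown because these genes have NF-kB motifs in common at nearly the same place. RefSeq promoter windows (GRCh38.p14, 250 bases before to 50 after the transcript start) were at hand for 7 of the 10 members, which leaves IL18, LIF and CSF1. Each line gives the 150 bases upstream of the RefSeq start, 5′ to 3′ on the gene's strand, in lower case. Capitals mark the 9 bases GGAATTTCC, the kB consensus (a 10-base motif) or the AP-1 motif TGANTCA, each searched on both strands.
CXCL1, chr4:73869243-73869392, plus strand: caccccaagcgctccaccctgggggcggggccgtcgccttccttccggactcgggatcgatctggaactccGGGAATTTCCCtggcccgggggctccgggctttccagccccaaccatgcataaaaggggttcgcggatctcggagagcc
CXCL2, chr4:74099196-74099345, minus strand: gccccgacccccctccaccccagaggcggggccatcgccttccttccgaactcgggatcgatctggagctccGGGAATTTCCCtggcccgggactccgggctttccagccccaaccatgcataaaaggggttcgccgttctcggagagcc
CXCL3, chr4:74038690-74038839, minus strand: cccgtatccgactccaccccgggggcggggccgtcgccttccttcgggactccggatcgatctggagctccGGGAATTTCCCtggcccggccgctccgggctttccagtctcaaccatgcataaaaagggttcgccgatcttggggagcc
CXCL5, chr4:73998678-73998827, minus strand: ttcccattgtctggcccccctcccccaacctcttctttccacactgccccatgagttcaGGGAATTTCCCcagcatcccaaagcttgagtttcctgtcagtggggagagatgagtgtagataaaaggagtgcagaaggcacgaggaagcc
CXCL8, chr4:73740419-73740568, plus strand: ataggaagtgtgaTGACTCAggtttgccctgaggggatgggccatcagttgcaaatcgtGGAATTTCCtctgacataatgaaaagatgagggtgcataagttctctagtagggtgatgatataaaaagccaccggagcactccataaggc
CCL20, chr2:227813692-227813841, plus strand: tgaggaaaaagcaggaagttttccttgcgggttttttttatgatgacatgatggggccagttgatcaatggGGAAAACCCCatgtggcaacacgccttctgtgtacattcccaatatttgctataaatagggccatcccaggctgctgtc

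GGAATTTCC lay in the windows of CXCL1, CXCL2, CXCL3, CXCL5 and CXCL8, that is in 5 of the 7, against 162 of 35116 RefSeq promoter windows of the same length (0.461%). Its first base was 78 bases upstream of the start in CXCL1 and CXCL3, 77 in CXCL2, 90 in CXCL5 and 91 in CXCL8. The kB consensus, which overlaps GGAATTTCC in the first 4 of these genes, was also found in 5 of the 7 windows (CXCL1, CXCL2, CXCL3, CXCL5 and CCL20), against 11.3% of all windows. In CCL20 the match was on the minus strand, 79 bases upstream. TGANTCA was present in CXCL8 (137 bases upstream) and IL11 (96 bases upstream), against 7.71% of windows, and the C/EBP motif TTGCNNAA in CXCL2 alone among the 7, against 10.5%. The motifs were picked in the knowledge of these promoters, and a match is a description of the letters, not evidence of binding. The RefSeq starts of CXCL2, CXCL3, CXCL5, CXCL8 and CCL20 lie inside the genes as GENCODE v29 draws them, so part of each of these 5 windows is transcribed in that annotation.

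**Figure D1:**
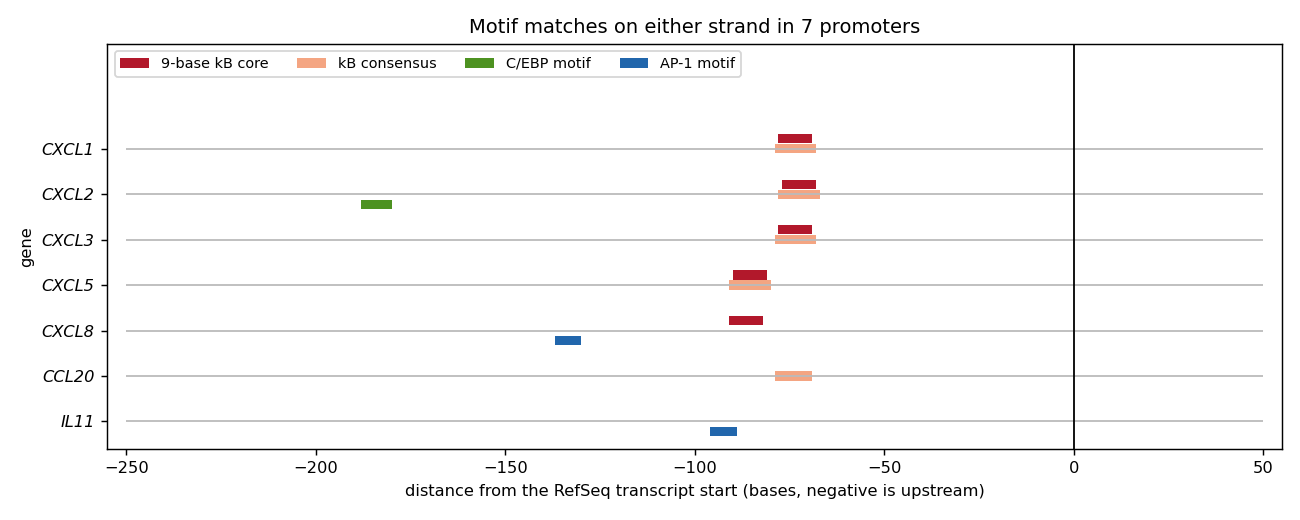
Motif matches in the promoter windows of 7 members; the x axis is the distance from the RefSeq transcript start in bases, the grey lines are the windows (250 bases before to 50 after the start) and each coloured bar is a match on either strand. The kB core sits between 77 and 91 bases upstream in CXCL1, CXCL2, CXCL3, CXCL5 and CXCL8.

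The libraries held between 12886607 and 16890346 counts. Liver tumour markers were present, since all 12 hepatocyte and liver tumour genes averaged at least 1 CPM (counts scaled to library size, with TMM factors) and summed to between 47001 and 80172 CPM per library. Of 10 neutrophil markers 2 reached an average of 1 CPM, with ELANE, FCGR3B, S100A8 and S100A12 at 0 in all 12 libraries, and nearly all of that list was CSF3R (108 to 173 CPM as group means). Of 10 macrophage and monocyte markers only LYZ reached it (36.7 to 61.5 CPM as group means). Control library 2 and CS2164 library 1 were the least like their group mates (mean Spearman correlation over genes 0.979 and 0.973, against 0.982 to 0.993 for the other 10). Many of the results named below, though not all, are given again without these 2 libraries.

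On the per-length scale of the authors' FPKM, CCL20 was the most abundant member in every library, at 91.1 FPKM on average over the 12 libraries (51.2 to 187). CSF1 followed at 8.8 FPKM (5.39 to 15.2), CXCL1 at 8.14 (3.19 to 13.7), CXCL2 at 5.81 (1.78 to 8.37), CXCL8 at 3.67 (1.55 to 6.33) and LIF at 2.11 (0.862 to 3.94). CXCL5 averaged 1.36 FPKM (0.569 to 2.88), CXCL3 0.762 FPKM (0.252 to 1.26), IL18 0.615 FPKM (0.192 to 1.37) and IL11 0.111 FPKM (0 to 0.331). CCL20 stood clear of CSF1, its lowest library lying above the highest of CSF1. Every other pair of neighbours in this order overlapped in range.

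**Figure D2:**
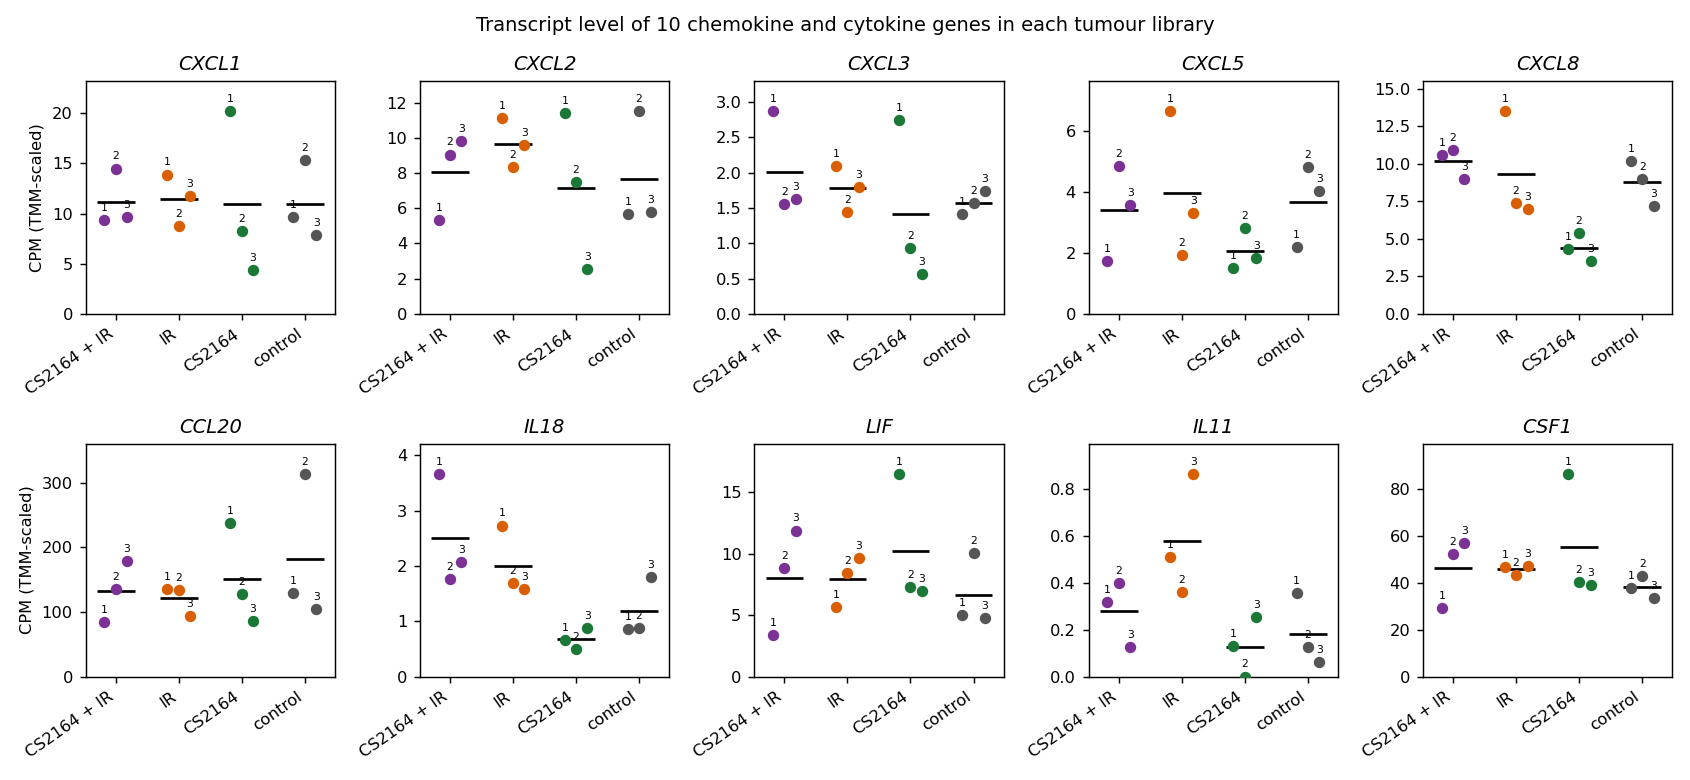
Transcript level of the 10 members in each library; the y axis is CPM after TMM scaling, starting at 0 and differing between panels, each point is a library numbered within its group, and bars are means of 3 libraries. CXCL8 is lowest in the 3 CS2164 libraries (3.53 to 5.41 CPM), and CXCL1, CXCL3, LIF and CSF1 show CS2164 library 1 well above its mates.

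The 5 ELR chemokine genes lie together on chromosome 4 (GRCh38, GENCODE v29 coordinates): CXCL8 (ENSG00000169429) at chr4:73740506-73743716 and CXCL1 (ENSG00000163739) at chr4:73869393-73871242 on the plus strand, and CXCL5 (ENSG00000163735) at chr4:73995642-73998779, CXCL3 (ENSG00000163734) at chr4:74036589-74038807 and CXCL2 (ENSG00000081041) at chr4:74097035-74099293 on the minus strand. CXCL1, CXCL2 and CXCL3 are near copies of one another: 5.73%, 9.24% and 5.26% of the 50-base windows in their transcripts occurred in another of the 3, so a small part of their reads could be assigned to the wrong one. No 100-base window of any member was shared with another gene.

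CXCL8, the chemokine known as interleukin-8, was lower in CS2164 tumours than in control tumours and was the only member to pass the test in any of the 4 comparisons tested. It had 4.32, 5.41 and 3.53 CPM in the CS2164 libraries, against 10.2, 8.99 and 7.21 CPM in the control libraries, and the groups did not overlap. The change was -1.0 ± 0.26 (log2, SE) with an adjusted p of 0.0169 (edgeR quasi-likelihood test, Benjamini-Hochberg). One of 9 tested members was thus called in a comparison in which 19.7% of all tested genes were called, 9.32% as lower, and in which 36.4% of genes had libraries that did not overlap, so the count is near the background. This comparison shares its CS2164 libraries with the one on which CXCL8 was chosen, and is not independent of that choice. In bulk tumours, fewer cells that express a gene and less RNA per cell cannot be told apart.

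The CXCL8 call was lost in several settings, with little change in size where libraries were left out. It did not pass without control library 2 and CS2164 library 1 together (-0.96, edgeR adjusted p = 0.0721), without control library 2 alone (-0.98, 0.0672), without CS2164 library 3 (-0.86, 0.0507), and when the 2 groups were fitted alone (-0.99, 0.057). Over all tested genes, the change between CS2164 and control rose with GC content (Spearman 0.453 across genes, which are not independent replicates) and gene length (0.245). CXCL8 is poor in GC, at 33.4% of its longest transcript against a median of 48.3%, and the library trends over GC content and length amounted to -0.90 at CXCL8. With them removed its change was -0.09 ± 0.27 (edgeR adjusted p = 0.865). Some fibroblast and pericyte markers also differed: 7 of 9 averaged at least 1 CPM, and none was at 0 in every library. Their sum was 73.5 to 131 CPM in CS2164 and 51.6 to 57.7 CPM in control libraries. It was above the control range in the other groups as well, at 70.1 to 106 CPM in IR and 82.2 to 86.6 CPM in CS2164 plus IR libraries. Of the 7 tested, CSPG4, COL1A1 and COL1A2 were called higher in CS2164 against control and 4 were not called, where 19.7% of all tested genes were called. Which cells these reads came from was not tested. Of the 12 hepatocyte and liver tumour markers, which summed to 61788 to 78367 CPM in CS2164 and 66314 to 80172 CPM in control libraries with none at 0, APOB was called higher (6850 against 4004 CPM, edgeR adjusted p = 0.00864) and KRT18, which overlaps KRT8, lower (370 against 503 CPM, -0.44 ± 0.15). The part of these markers in the CXCL8 difference was not tested.

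**Figure D3:**
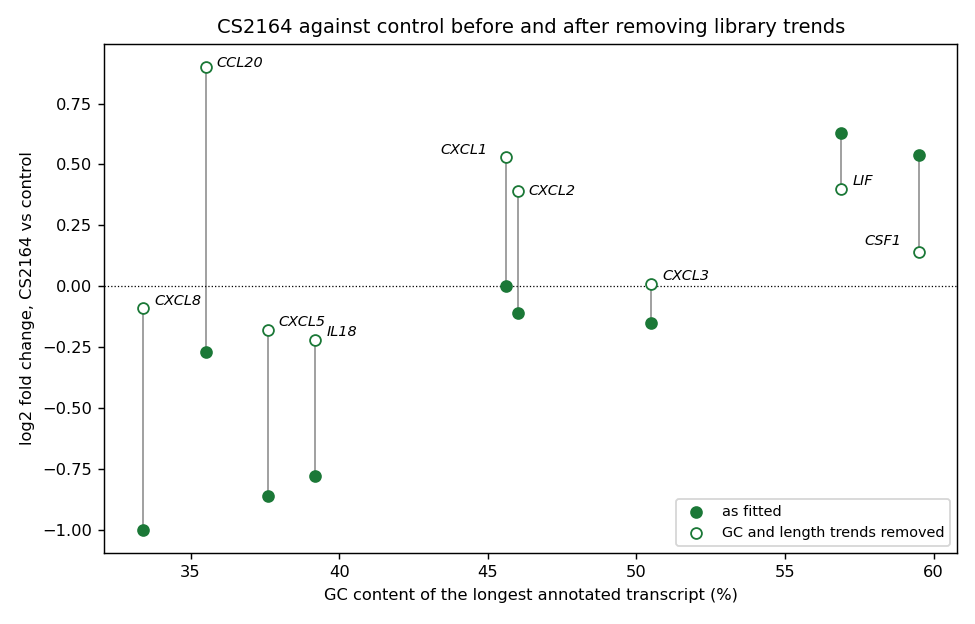
Change of the 9 tested members between CS2164 and control tumours (log2, y axis) against the GC content of the longest transcript (percent, x axis), as fitted (filled) and with each library's trends over GC content and gene length removed (open), joined by a line per gene. CXCL8, at 33.4% GC, is at -1.0 as fitted and -0.09 after removal.

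With radiation alone the CXCL8 level overlapped the control range. The IR libraries had 13.5, 7.41 and 6.98 CPM and the control libraries 10.2, 8.99 and 7.21 CPM. One IR library was above and 1 below all controls, and the change was 0.08 ± 0.25 (edgeR adjusted p = 0.902). The CS2164 plus IR libraries had 10.6, 10.9 and 8.98 CPM, which was 0.21 ± 0.25 against control (edgeR adjusted p = 0.7) and 0.13 ± 0.25 against IR (edgeR adjusted p = 1). Against CS2164 alone, the comparison used to choose the gene, the CS2164 plus IR mean was 10.1 CPM and the CS2164 mean 4.42 CPM, 2.3-fold higher as a description, with 1.20 on the log2 scale as fitted, 1.19 without control library 2 and CS2164 library 1 and 0.62 after removal of the GC and length trends.

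CXCL5, encoding another ligand of CXCR2, had its lowest mean in the same group but did not pass the test. It had 1.5, 2.82 and 1.83 CPM in CS2164 libraries and 2.2, 4.84 and 4.04 CPM in control libraries, and the groups overlapped. The change was -0.86 ± 0.45 (edgeR adjusted p = 0.185), or -0.44 without control library 2 and CS2164 library 1, and -0.18 ± 0.40 after removal of the GC and length trends. Its level spread widely elsewhere, with 1.75 to 4.87 CPM in CS2164 plus IR and 1.93 to 6.66 CPM in IR libraries.

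CXCL1, the neutrophil attractant also called GRO-alpha, did not differ between group means by more than its spread. It had 9.39, 14.5 and 9.67 CPM in CS2164 plus IR, 13.9, 8.8 and 11.8 CPM in IR, 20.2, 8.23 and 4.41 CPM in CS2164 and 9.65, 15.3 and 7.83 CPM in control libraries. The 3 CS2164 libraries ranged 4.58-fold, against 1.54-fold to 1.95-fold within the other groups, with library 1 the highest and library 3 the lowest of all 12. Its change in CS2164 against control was 0.00 ± 0.41, and it turned to -0.47 without control library 2 and CS2164 library 1.

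CXCL2 and CXCL3, which encode close relatives of CXCL1, showed the same wide range in CS2164 tumours. CXCL2 spread 4.52-fold among the CS2164 libraries (2.52 to 11.4 CPM) and averaged 8.06 ± 2.39 CPM in CS2164 plus IR, 9.66 ± 1.4 CPM in IR, 7.14 ± 4.44 CPM in CS2164 and 7.65 ± 3.33 CPM in control tumours (SD, n = 3 each). CXCL3 spread 4.84-fold among the CS2164 libraries (0.567 to 2.75 CPM) and averaged 2.01 ± 0.738, 1.78 ± 0.324, 1.42 ± 1.17 and 1.58 ± 0.16 CPM in the CS2164 plus IR, IR, CS2164 and control tumours (SD, n = 3 each). Changes of these 2 genes in the 4 tested comparisons lay between -0.25 and 0.33, with standard errors of 0.39 to 0.47, and the groups overlapped in each. The intervals of 2 SE on either side still allowed changes of up to 1.26 (CXCL3, CS2164 plus IR against control) and down to -1.10 (CXCL3, CS2164 against control) on the log2 scale. Without control library 2 and CS2164 library 1, CXCL3 in CS2164 against control was at -1.08 (edgeR adjusted p = 0.214), and CXCL2 was at 0.75 in IR and 0.50 in CS2164 plus IR against control (0.271 and 0.466).

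CCL20 (ENSG00000115009, chr2:227805739-227817564, plus strand) had 83.7, 135 and 179 CPM in CS2164 plus IR, 136, 134 and 92.8 CPM in IR, 237, 128 and 86.2 CPM in CS2164 and 129, 313 and 104 CPM in control libraries. Control library 2 was the highest of all 12, followed by CS2164 library 1, and every pair of groups overlapped. Its change was -0.59 ± 0.49 in IR against control (edgeR adjusted p = 0.575), -0.27 ± 0.48 in CS2164 against control (0.73) and -0.46 ± 0.48 in CS2164 plus IR against control (0.655). Without control library 2 the changes became 0.05 in IR and 0.19 in CS2164 plus IR, so the lower means of both irradiated groups against control rested on that library. In CS2164 the change was 0.37 without control library 2, -0.76 without CS2164 library 1 and -0.12 without both.

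IL18 (ENSG00000150782, chr11:112143251-112164117, minus strand) was the scarcest tested member, with 7 to 46 reads per library. It had 3.66, 1.77 and 2.07 CPM in CS2164 plus IR, 2.73, 1.69 and 1.58 CPM in IR, 0.654, 0.505 and 0.882 CPM in CS2164 and 0.852, 0.88 and 1.8 CPM in control libraries. Both irradiated groups lay above control libraries 1 and 2 in all 6 libraries, and control library 3 lay among them. The change against control was 1.06 ± 0.42 in CS2164 plus IR (edgeR adjusted p = 0.233), 0.75 ± 0.43 in IR (edgeR adjusted p = 0.394) and -0.78 ± 0.47 in CS2164 (edgeR adjusted p = 0.252), and none of these passed. The IR comparison shares no library with the one used to choose IL18, whereas the CS2164 plus IR and CS2164 comparisons each share 3.

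After removal of the GC and length trends, the IL18 changes against control were 1.27 ± 0.43 in CS2164 plus IR (edgeR adjusted p = 0.117), 0.96 ± 0.43 in IR (0.245) and -0.22 ± 0.49 in CS2164 (0.808). CS2164 plus IR against IR gave 0.30 ± 0.40 (edgeR adjusted p = 1). In the comparison that chose the gene, CS2164 plus IR tumours averaged 2.5 CPM and CS2164 tumours 0.68 CPM, with no overlap, which is 1.84 on the log2 scale as fitted, 1.80 without control library 2 and CS2164 library 1 and 1.49 with the trends removed. Of the 9 tested members, IL18 and CXCL8 were the 2 whose libraries did not overlap there, in a comparison in which 32.3% of all tested genes did not overlap and 9.69% passed the test, and nothing is read from this since the rule used it. The next members in that order were CXCL5 at 0.75 and CXCL3 at 0.49, and CCL20, LIF and CSF1 were below 0.

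LIF (ENSG00000128342, chr22:30240447-30246851, minus strand), a cytokine of the gp130 family, had 3.42, 8.87 and 11.9 CPM in CS2164 plus IR, 5.65, 8.44 and 9.65 CPM in IR, 16.5, 7.29 and 6.93 CPM in CS2164 and 5.04, 10.1 and 4.78 CPM in control libraries. CS2164 library 1 was the highest and CS2164 plus IR library 1 the lowest of the 12, and all pairs of groups overlapped. Its change in CS2164 against control was 0.63 ± 0.41 (edgeR adjusted p = 0.298), with 0.10 without CS2164 library 1, 1.06 without control library 2 and 0.53 without both. Without both libraries the changes against control were 0.68 in IR, where all libraries gave 0.25, and 0.73 in CS2164 plus IR, where all gave 0.29, and neither passed (edgeR adjusted p = 0.381 and 0.338). The exons of LIF overlap the antisense genes LIF-AS1 and AC004264.1, and the libraries do not mark strand, so their reads cannot be told apart.

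IL11 (ENSG00000095752, chr19:55364389-55370463, minus strand), which signals through gp130 with its own receptor chain, was near the limit of detection and did not pass the filter on low counts. It had 0 to 12 reads per library and 53 reads in all. The group sums were 13 reads in CS2164 plus IR, 26 in IR, 6 in CS2164 and 8 in control tumours, with CS2164 library 2 at 0, which allows up to 0.215 CPM (3 reads). All 3 IR libraries (0.508, 0.362 and 0.864 CPM) were above the control libraries (0.0621 to 0.355 CPM), where 26.3% of all tested genes did not overlap. The nearest were IR library 2 with 6 reads and control library 1 with 5 reads. In a fit without the filter the IL11 change in IR against control was 1.63 ± 0.87 and did not pass (edgeR adjusted p = 0.413).

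CSF1 (ENSG00000184371, chr1:109910242-109930992, plus strand), the macrophage growth factor, had 29, 52.4 and 57.1 CPM in CS2164 plus IR, 46.7, 43.3 and 47.3 CPM in IR, 86.3, 40.1 and 39.1 CPM in CS2164 and 37.6, 42.9 and 33.5 CPM in control libraries. The 3 IR libraries were the most alike (45.8 ± 2.14 CPM, SD, n = 3) and all lay above the controls (38 ± 4.69 CPM, SD, n = 3). That change was 0.27 ± 0.27 (edgeR adjusted p = 0.642), and CSF1 was 1 of 9 members whose libraries did not overlap there, against 26.3% of all tested genes. The change in CS2164 against control was 0.54 ± 0.27 (edgeR adjusted p = 0.164), with CS2164 library 1 as the single high value. Without that library it was 0.06, without it and control library 2 it was 0.16, and after removal of the GC and length trends 0.14.

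Over the set, radiation alone called none of 9 members by edgeR (0 at an unadjusted p under 0.05, 0 by DESeq2), against 0.436% of all genes, and the members' median change was 0.17 against -0.01 over all genes. CS2164 plus IR against control called none (1 at an unadjusted p under 0.05, which was IL18, and 0 by DESeq2), against 0.192% of all genes, with a median of 0.21 against 0.00. Among all 13521 tested genes, 2129 in IR and 2218 in CS2164 plus IR against control were at an unadjusted p under 0.05 by edgeR. CS2164 plus IR against IR called none (0 at an unadjusted p under 0.05, 0 by DESeq2), against 0% of all genes (331 of them at an unadjusted p under 0.05), with a median of 0.04 against 0.00 over all genes. CS2164 against control had a median of -0.15 over the members against -0.01 over all genes. The 3 comparisons against control share the control libraries.

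**Figure D4:**
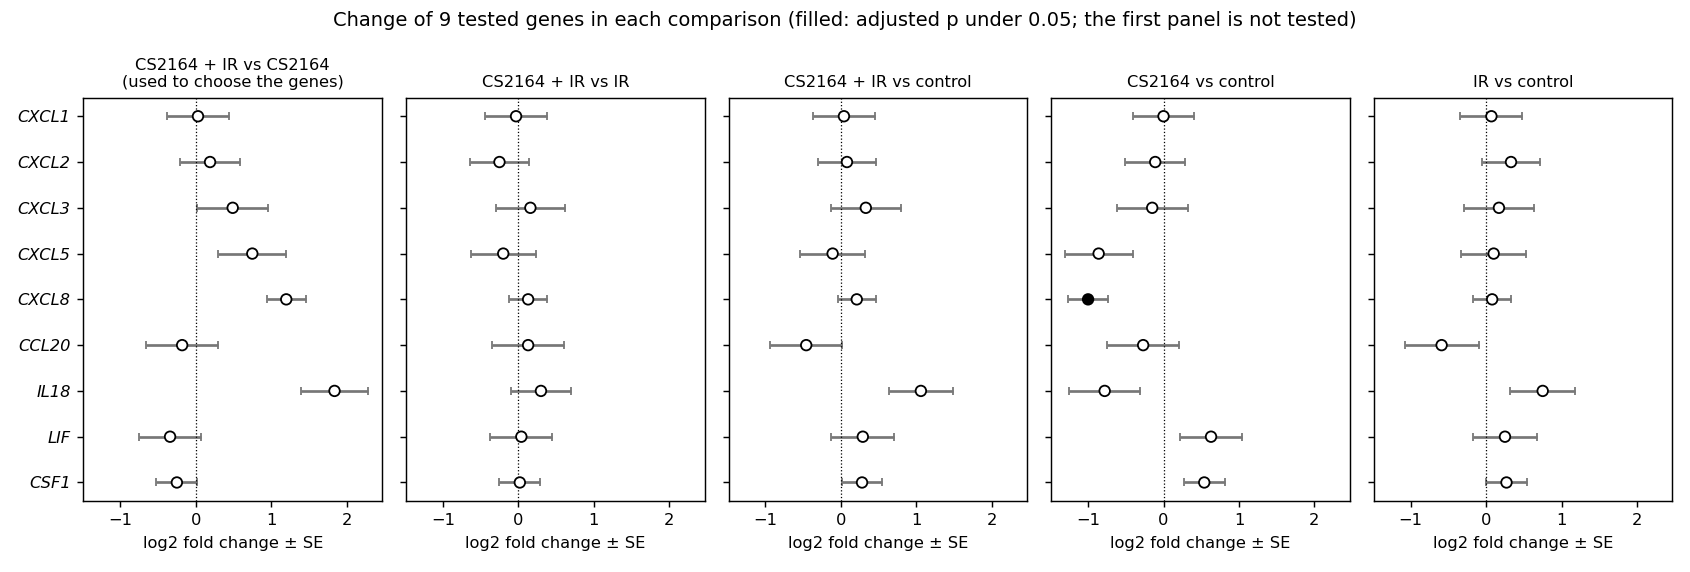
Change of the 9 tested members (log2 fold change, x axis, with bars of 1 SE) in the 5 comparisons of groups, 1 panel each, with genes on the y axis. A filled point has an edgeR adjusted p under 0.05; it is reached by CXCL8 in CS2164 against control (-1.0), and the panel of CS2164 plus IR against CS2164 is drawn without a test because the genes were chosen on it.

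The number of genes called in CS2164 against control, 1409 higher and 1260 lower, became 1131 higher and 1543 lower with upper-quartile scaling, and CXCL8 remained lower and called in that setting. With 965 genes called, the comparison without control library 2 and CS2164 library 1 had fewer calls than the 2669 with all libraries.

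Members also varied within groups, and several did so together. In CS2164 library 1, 6 of the 9 tested members were above their group mean and the median deviation was 0.78 (log2), and in control library 2, 7 of 9 were above with a median of 0.45. CS2164 library 3 had 1 of 9 above its group mean (median -0.44), and CS2164 plus IR library 1 had 3 of 9 (median -0.54). As deviations from group means over the 12 libraries, CXCL1 and CXCL2 had a Pearson r of 0.88, LIF and CSF1 0.88, CXCL2 and CCL20 0.86, CCL20 and LIF 0.80, and CCL20 and CSF1 0.78. CXCL8 had lower values, with r of 0.38 to CXCL1, 0.22 to CCL20 and -0.27 to LIF, and IL18 ran the other way from LIF (-0.63). These points share their libraries, and with them depth and base composition, and so they serve as a description.

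**Figure D5:**
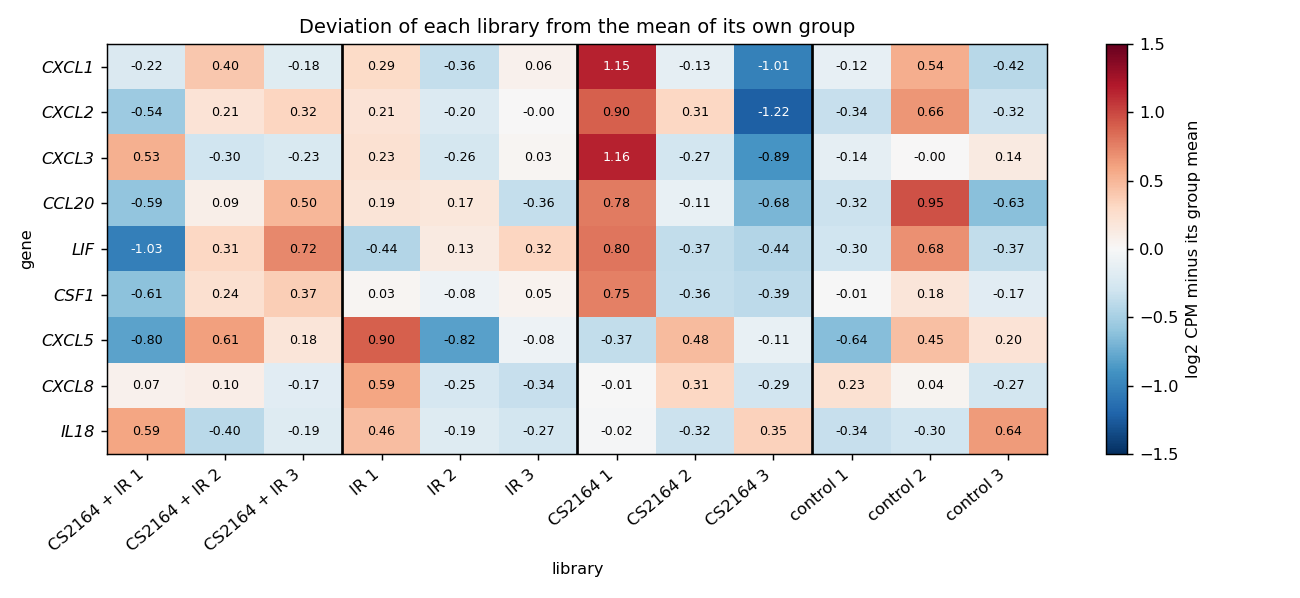
Deviation of each library from its own group mean (log2 CPM, colour and printed value) for the 9 tested members (y axis) in the 12 libraries (x axis). CS2164 library 1 is above its group mean by 0.75 or more for CXCL1, CXCL2, CXCL3, CCL20, LIF and CSF1, and close to it for CXCL8 (-0.01) and IL18 (-0.02).

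Among 12675 genes averaging at least 1 CPM, those whose log2 CPM followed CXCL8 most closely over the 12 libraries were HYLS1 (Pearson r 0.95), HNRNPAB (0.94), MTFR2 (0.94), RPP21 (0.91) and COX19 (0.91). For IL18 they were CRAMP1 (0.96), ZNF548 (0.94), ME3 (0.94) and the mitochondrially encoded MT-CO1 (0.93) and MT-CYB (0.93). No member was among them. All these correlations hold differences between groups as well as between libraries.

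Most receptors of the members were scarce or undetected in the human counts. CXCR1, the atypical chemokine receptor gene ACKR1 and IL18RAP, the second chain of the IL18 receptor, had no read in any of the 12 libraries, which allows up to 0.233 CPM in the shallowest (3 reads). CXCR2 had reads in CS2164 library 1 (0.131 CPM) and IR library 3 (0.072 CPM) and in no other. CCR6 stayed at or below 0.144 CPM, and CSF1R had 10 reads over the CS2164 plus IR libraries, 17 over IR, 9 over CS2164 and 6 over control libraries. The counts are of human genes, and how far reads from receptors on mouse cells of the host entered them was not tested.

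The gp130 chains, by contrast, were expressed. IL6ST averaged 62.2 ± 4.68 CPM in CS2164 plus IR, 61.2 ± 4.94 in IR, 79.8 ± 27.9 in CS2164 and 72.5 ± 2.77 in control tumours (SD, n = 3 each). LIFR averaged 28.4 ± 1.38, 26.1 ± 4.84, 35.7 ± 9.59 and 31.1 ± 1.66 CPM in the CS2164 plus IR, IR, CS2164 and control tumours (SD, n = 3 each). IL11RA was at 5.14 ± 1.14 CPM in CS2164 plus IR, 4.54 ± 1.26 in IR, 3.82 ± 0.955 in CS2164 and 2.8 ± 0.869 in control tumours (SD, n = 3 each), and IL18R1 at 1.38 ± 0.402, 1.25 ± 0.461, 1.64 ± 0.408 and 1.68 ± 0.212 CPM in the same order of groups. None of these 4 tested receptors passed by edgeR in the 4 comparisons, and none by DESeq2, with IL11RA at an unadjusted p under 0.05 in IR and in CS2164 plus IR against control. With the GC and length trends removed, LIFR (0.42 ± 0.12, edgeR adjusted p = 0.0279) and IL6ST (0.35 ± 0.11, 0.0306) were called higher in CS2164 against control, where as fitted they were at 0.20 ± 0.19 and 0.14 ± 0.19. With the trends removed, 2175 of 13501 tested genes were called in this comparison. Without control library 2 and CS2164 library 1 LIFR was at 0.34 and IL6ST at 0.41, and neither passed (edgeR adjusted p = 0.206 and 0.057). LIFR and IL6ST overlap antisense genes. The change nearest to passing was IL11RA in CS2164 plus IR against control, at 0.88 ± 0.31 (edgeR adjusted p = 0.185), and IL11RA overlaps the expressed genes GALT and AL162231.3 on the same strand.

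Across 8 lists around the members (their receptors, other chemokines, other cytokines, NF-kB genes, C/EBP and AP-1 factors, IL18 processing, gp130 and STAT3 signalling, and acute phase proteins), 110 genes were tested. CS2164 against control called 13 of them higher and 4 lower, 15.5% against 19.7% of all genes, with a median of 0.09 against -0.01. It called 18 by DESeq2, 15 by edgeR after removal of the GC and length trends and 8 without control library 2 and CS2164 library 1. Of all genes 3266, 2175 and 965 were called in these settings. At an unadjusted p under 0.05 by edgeR, IR against control had 27 of the 110, against 2129 of all 13521 tested genes. After adjustment IR against control called 1 higher, which is 0.909% against 0.436% of all genes. The count was 7 by DESeq2, 7 by edgeR after removal of the GC and length trends and 8 without control library 2 and CS2164 library 1. Over all genes, 348, 351 and 440 were called in those settings. CS2164 plus IR against control had 31 of the 110 at an unadjusted p under 0.05 by edgeR, against 2218 of all 13521 tested genes. After adjustment it called none by edgeR, where 0.192% of all genes were called. It called 5, 5 and 8 in those settings, where 318, 296 and 411 of all genes were called. CS2164 plus IR against IR called none of the 110, and none of all genes, by edgeR or DESeq2. At an unadjusted p under 0.05 by edgeR were 9 of the 110, against 331 of all 13521 tested genes.

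In the IR comparison the 1 gene was FOSL1, an AP-1 subunit also called FRA1, 1 of 14 C/EBP and AP-1 factors tested. It averaged 3.37 ± 1.27 CPM in IR and 0.374 ± 0.106 CPM in control tumours (SD, n = 3 each), a change of 3.16 ± 0.46 (edgeR adjusted p = 0.00614), and was 3.02 after removal of the GC and length trends. When each library was left out in turn the change stayed between 2.84 and 3.40, with edgeR adjusted p of 0.0035 to 0.0714, and it did not pass without control library 2 or without IR library 1. FOSL1 was also higher in every CS2164 plus IR library (1.69 ± 0.165 CPM, SD, n = 3) than in every control library, where the change of 2.17 ± 0.47 did not pass (edgeR adjusted p = 0.0573).

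Of the acute phase proteins, 4 of 14 were called higher in CS2164 against control (C3, CP, CFB and A2M) and 1 lower (ORM2). A2M and ORM2 are named after their values were seen. Of all tested genes 19.7% were called in this comparison. The list's median change was 0.13, with 8 of 14 above 0. C3, the central complement component, averaged 3528 ± 1360 CPM in CS2164 and 1297 ± 199 CPM in control tumours (SD, n = 3 each), a change of 1.44 ± 0.23 (edgeR adjusted p = 0.004). CP, which encodes ceruloplasmin, was at 203 ± 25.5 CPM in CS2164 and 88.7 ± 5.98 CPM in control tumours (1.19 ± 0.23, edgeR adjusted p = 0.00495). CFB, complement factor B, was at 3.64 ± 1.17 CPM in CS2164 and 1.21 ± 0.245 CPM in control tumours (1.58 ± 0.36, edgeR adjusted p = 0.00953). CP overlaps HPS3 on the other strand and CFB overlaps C2 on the same strand, so reads may be shared, and without control library 2 and CS2164 library 1 the changes were 1.12 for CP and 1.21 for CFB and did not pass (edgeR adjusted p = 0.161 and 0.0933).

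In the gp130 and STAT3 list, 3 of 17 genes were called higher in CS2164 against control and none lower. Of all tested genes 19.7% were called there, so the count is near the background. The list's median change was 0.22, with 15 of 17 above 0. STAT3, the transcription factor downstream of LIF and IL11, averaged 108 ± 14.5 CPM in CS2164 and 72.4 ± 7.18 CPM in control tumours (0.58 ± 0.14, edgeR adjusted p = 0.0114). OSMR, the oncostatin M receptor chain, rose by 0.75 ± 0.21 (edgeR adjusted p = 0.0203) and IL6R, the interleukin-6 receptor, by 0.45 ± 0.15 (0.0362). The OSMR exons overlap RICTOR on the other strand. After removal of the GC and length trends STAT3 was at 0.26 and IL6R at 0.24, and neither passed (edgeR adjusted p = 0.0816 and 0.196). Without control library 2 and CS2164 library 1 IL6R stayed at 0.44 and OSMR was at 0.49, and neither passed (edgeR adjusted p = 0.0709 and 0.285). STAT3 was at 0.43 in that setting and passed (edgeR adjusted p = 0.0445).

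Of 25 NF-kB genes tested, 3 were called higher in CS2164 against control and none lower, where 19.7% of all tested genes were called. The list's median change was 0.00, with 13 of 25 above 0, so the count is no rise of the list. REL changed by 0.81 ± 0.24 (edgeR adjusted p = 0.027) and RELA by 0.41 ± 0.14 (0.0462), both encoding NF-kB subunits, and ICAM1, an adhesion molecule and NF-kB target, by 0.98 ± 0.32 (0.0474). The ICAM1 groups overlapped, at 60.1 to 205 CPM in CS2164 and 54.3 to 65.7 CPM in control libraries. With the trends removed RELA was at 0.10 and ICAM1 at 0.79, and neither passed (edgeR adjusted p = 0.512 and 0.114). Without control library 2 and CS2164 library 1 RELA was at 0.20 and ICAM1 at 0.25 (edgeR adjusted p = 0.309 and 0.483), whereas REL was at 0.67 and did not pass either (0.104).

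Among 10 tested genes of IL18 processing, CASP8, a caspase that initiates apoptosis, fell in CS2164 against control, at 63.7 ± 7.72 CPM in CS2164 and 95.2 ± 5.79 CPM in control tumours (SD, n = 3 each; -0.58 ± 0.14, edgeR adjusted p = 0.0128). Of 9 other chemokines tested, CX3CL1, the membrane-bound fractalkine, rose, with 215 ± 44.6 CPM in CS2164 and 136 ± 6.69 CPM in control tumours (SD, n = 3 each; 0.67 ± 0.15, edgeR adjusted p = 0.0095). Of 20 other cytokines TGFB1 rose by 0.51 ± 0.17 (edgeR adjusted p = 0.046), and it shares exonic sequence with the abundant HNRNPUL1 on the other strand. Of the AP-1 and C/EBP factors, FOSL2 rose by 0.86 ± 0.23 (edgeR adjusted p = 0.0176) and CEBPG changed by -0.39 ± 0.13 (0.0472). These calls stand in a comparison in which 19.7% of all tested genes were called. With the trends removed TGFB1 was at 0.30, FOSL2 at 0.54 and CEBPG at -0.17, and without control library 2 and CS2164 library 1 they were at 0.24, 0.45 and -0.21, and none passed in either setting.

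Of the 15 list genes that the naming rule took for CS2164 against control, 7 kept their call with the GC and length trends removed, 4 without control library 2 and CS2164 library 1, and 3 in both settings. Those 3 were CX3CL1, CASP8 and C3, each smaller without control library 2 and CS2164 library 1. They were at 0.45, -0.45 and 0.97 there, against 0.67, -0.58 and 1.44 with all libraries. They were among 5 of the 15 that were called whichever single library was left out, with CP and CFB the others. Over all genes, 2669 were called as fitted, 2175 with the trends removed and 965 without control library 2 and CS2164 library 1. How many of the 2669 kept their call was not counted. The 15 were taken by lowest adjusted p in this comparison, and the settings reuse its libraries, so calls kept are no independent support. Leaving out control library 2 alone ended the call of STAT3, and leaving out control library 2 or CS2164 library 1 ended those of OSMR and FOSL2, while over all such fits the changes were 0.50 to 0.69 for STAT3, 0.59 to 0.83 for OSMR and 0.51 to 1.03 for FOSL2. REL did not pass without control library 2, CS2164 library 2 or CS2164 library 3 (0.61 to 0.98). TGFB1 (0.26 to 0.63), RELA (0.27 to 0.48), ICAM1 (0.32 to 1.30), CEBPG (-0.49 to -0.28) and IL6R (0.40 to 0.49) were called in 2 to 6 of the 12 fits that left out 1 library.

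In the comparison that chose the members, CS2164 plus IR against CS2164, the all-gene split of 511 higher and 799 lower became 750 higher and 614 lower with upper-quartile scaling. CXCL6, another ELR chemokine gene and no member, was chosen for mention after its values were seen. It averaged 9.19 ± 3.24 CPM in CS2164 plus IR, 8.56 ± 1.89 in IR, 4.82 ± 1.38 in CS2164 and 6.14 ± 1.28 in control tumours (SD, n = 3 each). The CS2164 plus IR and CS2164 libraries overlapped, at 6.15 to 12.6 and 3.65 to 6.34 CPM. Nothing is read from this about the members.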

How the data were processed

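The authors deposited a table of read counts and FPKM per gene and library. Reads were aligned to GRCh38 with HISAT2 2.1.0 and counted with HTSeq 0.9.1, per the submitters' processing notes, and libraries were poly-A selected without strand marking, per the labels' protocols. Which annotation release was used is not given in the sources used here. Here the deposited FPKM served to compare levels between genes and gave gene lengths.

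Deposited counts were analysed with edgeR 4.0.16 (R 4.3.3). Genes were kept by filterByExpr (minimum count 10), libraries scaled by TMM, and all 12 libraries entered 1 quasi-likelihood fit with 4 group coefficients. Adjustment for 13521 genes followed Benjamini and Hochberg, with 0.05 as threshold. Symbols were found for 19941 genes and GC content for 99.2% (GENCODE v29). Correlations used log2 CPM with a prior count of 2.

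The limit for 0 reads is 3 counts and covers counting error only. Alternatives were upper-quartile or RLE scaling, DESeq2 1.42.0, no filter, a replicate block, removal of each library's GC and length trends (splines with 4 degrees of freedom), groups alone, and libraries left out. Named genes are all 10 members, up to 3 genes per list and comparison by lowest adjusted p, the receptors, and the 5 genes most alike to CXCL8 and to IL18. The members and lists were chosen with earlier results of these data known. One result of these lists is not reported here.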

Additional observations from a re-analysis of the deposited data

How the results depend on the processing

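No member other than CXCL8 was called in any of the 4 tested comparisons under any of 21 alternatives. Of 756 alternative member values, 691 kept direction and call, 59 changed sign with no call on either side, and 6 lost the CXCL8 call. The number of members called in CS2164 against control was 0 with the GC and length trends removed, with that and the replicate block, without control library 2 and CS2164 library 1, and with the groups alone, and 0 to 1 with single libraries left out. Counts are low for IL11 (0 to 12 reads per library), IL18 (7 to 46) and CXCL3 (9 to 42), which limits what these libraries can show for them.

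Deviations from group means correlated at -0.372 to 0.149 between same-numbered libraries of different groups. Between differently numbered ones the correlations were -0.235 to 0.326. With 3 libraries per group this cannot tell whether the numbers mark a shared batch. The replicate block gave 20 genes in IR against control, 2441 in CS2164 against control and 39 in CS2164 plus IR against control, and changed no member's call.

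All genes called in IR against control (59) were 117 without a filter, 348 by DESeq2, 351 with the trends removed, 255 with that and the block, 440 without control library 2 and CS2164 library 1, 137 with the groups alone, and 0 to 451 with single libraries left out. In CS2164 against control (2669) they were 965 without those 2 libraries, 290 with the groups alone and 644 to 2671 with single libraries left out. In CS2164 plus IR against control (26) they were 96, 318, 296, 283, 411 and 13 in the same order of settings as for IR, and 0 to 436. In CS2164 plus IR against IR they were 0 to 1 with single libraries left out. In CS2164 plus IR against CS2164 (1310) they were 2537 with the trends removed, 2340 with that and the block, 3271 without the 2 libraries, 844 with the groups alone and 311 to 2058 with single libraries left out. The cause was not tested.

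Sign changes of members, on the log2 scale, were as follows. In CS2164 against control CXCL1 was -0.04 with upper-quartile scaling, -0.10 with the replicate block and -0.47 without the 2 libraries; CXCL2 was 0.39 with the trends removed and 0.35 with the block added, CCL20 0.90 and 0.82, and CXCL3 0.01 with the trends removed. In CS2164 plus IR against control CXCL5 was 0.17 and 0.16 with the trends removed without and with the block and 0.14 without the 2 libraries, and CCL20 was 0.01 with trends and block and 0.19 without the 2 libraries. In IR against control CCL20 was 0.05 without the 2 libraries. With single libraries left out, IR against control ranged over -0.12 to 0.40 for CXCL1, -0.51 to 0.43 for CXCL5, -0.29 to 0.24 for CXCL8 and -0.87 to 0.05 for CCL20. CS2164 against control ranged over -0.80 to 0.38 for CXCL1, -0.63 to 0.31 for CXCL2, -1.07 to 0.23 for CXCL3 and -0.76 to 0.37 for CCL20. CS2164 plus IR against control ranged over -0.20 to 0.36 for CXCL1, -0.09 to 0.50 for CXCL2, -0.46 to 0.19 for CXCL5, -0.74 to 0.19 for CCL20 and -0.09 to 0.73 for LIF. CS2164 plus IR against IR ranged over -0.27 to 0.13 for CXCL1, -0.16 to 0.32 for CXCL3, -0.56 to 0.40 for CXCL5, -0.04 to 0.49 for CXCL8, -0.14 to 0.38 for CCL20, -0.06 to 0.59 for IL18, -0.34 to 0.39 for LIF and -0.16 to 0.26 for CSF1.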
